A study of Danio rerio with 12 samples.

Results

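The regions described here were accessible in melanocytes and were missing from the equally long peak lists of melanoma. Chromatin accessibility was measured by ATAC-seq, which marks open DNA by the insertion of adapters with a transposase, and 1 list of peak intervals per library was used. Each of the 12 lists was reduced to its 42364 strongest intervals by the −log10 p of the peak caller, after intervals 120 bp wide, give or take 1 bp, had been dropped (called narrow intervals here), and the reduced lists were merged into 153971 regions. The members are the regions selected on these lists as overlapped by all 3 MC_Het lists and by none of the 8 MA lists. They numbered 1170, which is 0.76% of all regions and 7.91% of the 14799 regions in all 3 MC_Het lists. Those values chose the members, so the contrast of MC_Het with MA at these regions is given as a description and was not tested. Overlap with MC_Homo took no part in the choice, although its list, the shortest, set the length of the others.

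MC_Het and MC_Homo were melanocytes sorted by mCherry fluorescence from the skin of adult zebrafish, 1 fish per library. MC_Het fish (3 libraries) had the genotype BRAFV600E/+, p53+/lf, mitfa+/- with mitfa:mCherry, and the MC_Homo fish (1 library) was BRAFV600E, p53lf/lf, mitfa+/- with mitfa:mCherry. MA (8 libraries) were melanoma cells sorted by GFP from tumors of BRAFV600E, p53lf/lf fish with crestin:EGFP. All groups thus carried the BRAFV600E transgene, driven by the mitfa promoter, and at least 1 p53 loss-of-function allele, and the melanocyte fish also carried a mitfa minigene on the mCherry construct, so no group was wild type. The reporter differed between the cell types. All MC libraries and MA replicates 4 and 5 (MA4 and MA5) were of sequencing run 2, and MA6 to MA11 were of run 3. Ages are not given in the sources used here. The sorted identities could not be checked at marker genes, since no gene annotation of the assembly (GRCz11) was used here.

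Melanocytes are pigment cells of neural crest origin that depend on the transcription factor Mitf. Their distal enhancers and their promoters are open where transcription factors hold nucleosomes away, and the set of open elements is characteristic of a cell type. Melanoma in this model arises from the melanocyte lineage with active BRAF signaling and lost p53 function and re-expresses neural crest genes such as crestin. The comparison asks which open elements of the melanocyte are not shared by the tumor. In bulk libraries, fewer cells with an open element and less opening per cell cannot be told apart.

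Depth, as recovered from the peak values, ran from 6.05 to 24.62 M tags, with MC_Het5 the deepest and MC_Homo at 6.42 M. The equal length of the lists did not mean an equal level at their ends. Levels are given as tags per M, the number of tags (transposase cuts) piled up at the strongest position of an interval for every 1000000 tags of the library. The lowest level among the intervals kept was from 0.772 to 0.904 tags per M in the MC_Het lists and from 1.13 to 1.43 in the MA lists. In the complete lists the lowest level called lay between 0.520 and 0.767 tags per M in the MA libraries and at 0.779 in MC_Homo. A member outside an MA list may thus hold a signal under these levels. The level at the end of a list did not follow depth alone, since MA4, with 6.31 M tags, ended at 1.43 tags per M and MC_Homo, with 6.42 M, at 0.779.

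Most members were regions of modest accessibility in melanocytes. The mean of the 3 MC_Het levels had a median of 1.40 tags per M over the 1170 members, with 5% of members below 0.958 and 5% above 3.24. At the 7666 regions of all 3 MC_Het and all 8 MA lists the median was 2.55. The members' median mean rank was 46.6% of the list length from the top, near the middle of the lists, against 19.4% at the regions open in all 11 lists. The members' medians were 1.29 tags per M in MC_Het4, 1.22 in MC_Het5 and 1.41 in MC_Het6. The median coefficient of variation over the 3 fish was 23.3% per member. The rule limited this spread, since a region under the end of any of the 3 lists was not chosen. Single members varied more, such as member 2 with 18.5, 4.79 and 12.2 tags per M. Across members, the Spearman correlation of levels was 0.34 for MC_Het4 with MC_Het5, 0.38 for MC_Het4 with MC_Het6 and 0.52 for MC_Het5 with MC_Het6, over regions that were all chosen for a high value in each of these libraries. The strongest position of a member fell within a range of 21 bp between the 3 fish at the median, and within 17 bp at the regions open in all 11 lists.

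The lists without a length limit showed how far the term closed applies. In the complete MA lists, without narrow intervals, 587 members (50.2%) had no interval in any of the 8 libraries, 329 had one in 1 library and 254 had one in 2 or more. When narrow intervals were counted as well, 441 members (37.7%) had none. The other 729 members (62.3%) had an interval of some width in at least 1 MA library and were not without signal there. Such an interval was weaker than the end of that library's equal-length list or was a narrow interval, which the rule dropped. In 266 members (22.7%) at least 1 MA library held a narrow interval that was as strong as the weakest interval kept in its list. At these 266 the width filter decided that they were outside an MA list, and the word closed does not apply to them.

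The width filter mattered most at the strongest members. Of the 101 members whose mean rank lay in the strongest 20% of the MC_Het lists, 91 (90.1%) had an MA interval of some width. Among the 10 members with the best mean rank, 9 had one and 6 had one in at least 5 MA libraries. The 10 are described first because the rule for naming regions put them first.

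Member 1 (chr25:32820666-32820790) had 15.1 tags per M in MC_Het4, 10.8 in MC_Het5, 9.97 in MC_Het6 and 16.0 in MC_Homo. All 8 MA libraries held a narrow interval there, with a lowest level of 8.67, a median of 11.4 and a highest of 13.9 tags per M. The melanocyte and melanoma levels overlapped, so the best-ranked member was open in every melanoma library as well. Members 7 (chr19:39778931-39779054), 8 (chr17:48214665-48214790) and 9 (chr15:8626558-8626704) also had such intervals, in 8, 7 and 8 MA libraries. At member 9 the MC_Het levels were 4.65, 4.06 and 3.95 and the MA levels ran from 1.74 to 3.53 with a median of 2.14 tags per M. There MC_Het and MA did not overlap although every MA library had an interval, and MC_Homo, at 2.49, lay among the MA libraries. At member 8 they did not overlap either, with 3.57 to 5.43 tags per M in MC_Het and 1.73 to 2.96 in the 7 MA libraries, whereas at member 7 they did, with 3.86 to 5.43 and 1.92 to 4.60.

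Member 2 (chr23:2670858-2671021) had 18.5, 4.79 and 12.2 tags per M in the MC_Het libraries and 23.5 in MC_Homo, the last in a narrow interval. MA4 had 13.6 and MA5 12.6 tags per M, and none of the 6 run 3 libraries had an interval. The signal was thus present in each of the 6 libraries of run 2, melanoma included, and in none of run 3. Member 5 (chr4:73752070-73752238) repeated this, with 5.94, 4.02 and 5.08 tags per M in MC_Het, 5.92 in MC_Homo, 4.44 in MA4, 2.04 in MA5 and no interval in run 3. Member 10 (chr8:7086548-7086968) had 7.36, 2.84 and 3.76 in MC_Het, 9.19 in MC_Homo, 5.07 in MA4 and 3.31 in MA5, and in run 3 only MA7 had an interval, at 0.853 tags per M. Member 6 (chr6:58405793-58406224) had 6.98, 3.05 and 6.02 in MC_Het and 7.48 in MC_Homo. MA4 reached 6.02 and MA5 4.33 there, whereas 3 run 3 libraries lay between 0.640 and 0.953 and the others had no interval. At these 4 members MA4 fell within the melanocyte range and MA5 within it or, at member 5, below it, and the run 3 libraries were lower still or had no interval.

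Member 4 (chr19:18732671-18732803) stood between these kinds. Its MC_Het levels were 8.53, 4.31 and 4.52 tags per M and MC_Homo had 9.35. MA4 and MA5 had 5.39 and 4.59, and the 4 run 3 libraries with an interval had between 1.65 and 2.56. Member 3 (chr20:9011762-9011910), with 5.17, 4.79 and 6.87 tags per M in MC_Het, was the only one of the 10 without an interval of any width in any MA library. It had none in MC_Homo either, so it was seen in the 3 MC_Het fish alone.

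**Figure D1:**
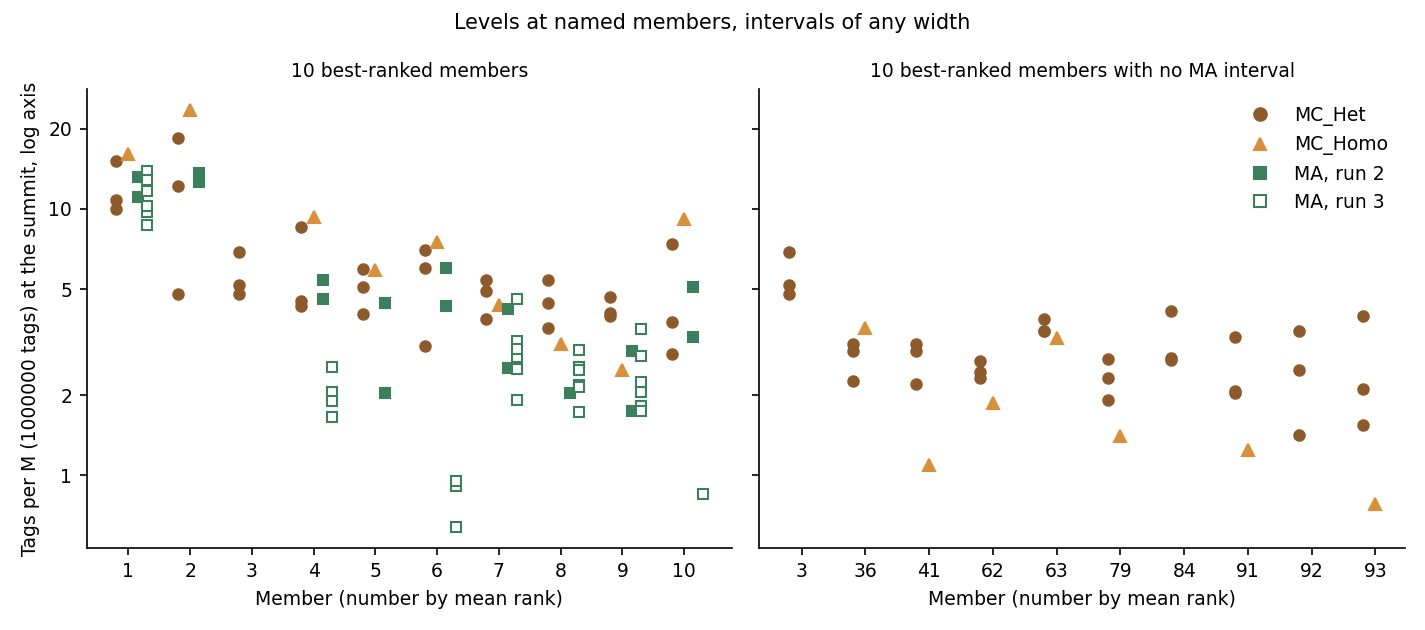
Tags per M (1000000 tags) at the strongest position (log axis) in each library with an interval of any width, at the 10 members with the best mean rank (left) and at the 10 best-ranked members with no MA interval of any width (right). Brown circles are MC_Het, orange triangles MC_Homo, filled green squares MA of run 2 and open green squares MA of run 3, and a library with no interval has no symbol. At member 1 the 8 MA libraries lie between 8.67 and 13.9, inside or near the MC_Het range, while the right panel holds no green symbol.

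The description of open in melanocytes and closed in melanoma applies best to the 441 members with no MA interval of any width. Their MC_Het mean had a median of 1.31 tags per M, with quartiles of 1.11 and 1.59, and only 10 of them ranked in the strongest 20% of the MC_Het lists. In 125 of the 441 (28.3%) the MC_Het mean was more than 2 times the highest of the lowest levels called in any MA list (0.767), so for most of them the peak lists could have shown only a small loss. The 10 with the best mean rank were named after their values had been seen. Member 3, above, had the best rank of these 10. The highest MC_Het mean of the 441, 6.01 tags per M, was at member 130 (chr9:55862095-55862227), which ranked lower. It had 6.59, 5.61 and 5.83 in MC_Het and 7.94 in MC_Homo, the last in a narrow interval. Member 130 lay 0.033 kb from the nearest region open in all 11 MC_Het and MA lists, against a median of 49.3 kb over the members. The MA lists thus held an open region directly beside it.

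Member 63 (chr5:6613362-6613501) had 3.49, 3.86 and 3.48 tags per M in MC_Het and 3.27 in MC_Homo, so the 4 melanocyte libraries lay close together while none of the 8 MA libraries had an interval. Member 36 (chr9:8493416-8493541) had 3.10, 2.92 and 2.26 in MC_Het and 3.58 in MC_Homo. Member 62 (chr12:44897998-44898121) had 2.33, 2.68 and 2.45 in MC_Het and 1.87 in MC_Homo, there in a narrow interval. Among the 10, these 3 were the clearest cases of a region with a signal in all melanocyte libraries of both genotypes. Each was under 150 bp wide. Member 130, outside the 10, had higher levels than these 3 in all 4 melanocyte libraries.

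The other 6 were weaker in MC_Homo than in each MC_Het library, or missing from it. Member 41 (chr15:43385944-43386338) had 3.10, 2.19 and 2.92 tags per M in MC_Het and 1.09 in MC_Homo. Member 93 (chr15:8948445-8948868) had 1.55, 2.11 and 3.95 in MC_Het and 0.779 in MC_Homo, the lowest level called in MC_Homo. Members 84 (chr9:33932502-33932901) and 92 (chr21:3060071-3060478) had no interval in MC_Homo, with MC_Het levels of 2.71, 2.76 and 4.14 at the first and of 1.42, 2.48 and 3.48 at the second. Members 79 (chr24:34230813-34230943) and 91 (chr23:46020432-46020566) had MC_Het means of 2.32 ± 0.410 and 2.46 ± 0.718 tags per M (SD, n = 3) and MC_Homo levels of 1.40 and 1.25. In 7 of the 10, MC_Homo had an interval of some width.

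Another naming rule took the 10 best-ranked members that were also in the MC_Homo list and in no complete MA list, narrow intervals left aside. Of these, 8 had an MA interval when such intervals were counted, and members 36 and 41 had none. At members 20 (chr15:30946862-30947210), 21 (chr3:61595801-61596064) and 23 (chr23:7792449-7792705) the MA intervals were those of MA4 and MA5 alone. At member 21, for example, MC_Het had 6.46, 1.83 and 4.61 tags per M, MC_Homo 10.9, MA4 4.28 and MA5 3.06. At members 12 (chr6:37423641-37423771) and 28 (chr7:74225443-74225570) they came from both runs, with MA levels of 2.64 to 3.22 and of 1.90 to 2.45 tags per M beside MC_Het means of 4.53 ± 1.01 and 2.91 ± 0.530 (SD, n = 3). The deepest MC_Het library, MC_Het5, was the lowest of the 3 at 617 of the 1170 members, members 20, 21 and 23 among them.

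Where an MA library did hold an interval of another width at a member, its level was below that of the melanocytes in most cases. The median MA level at such members ran from 0.826 tags per M in MA11 to 1.11 in MA4, and the median ratio to the MC_Het mean of the same members from 0.588 in MA7 to 0.782 in MA4. Since the rule kept out every stronger MA interval, this direction was set by the choice. The narrow intervals, which the rule did not limit, were different. In MA4 they were the only interval at 170 members, with a median of 3.17 tags per M and a median ratio to the MC_Het mean of 1.21, and in MA5 at 166 members with 2.42 tags per M and a ratio of 0.947. In MA6 to MA11 they were the only interval at 28 to 60 members, and the median ratio ran from 0.649 to 0.982.

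The share of members with an interval in the complete list of an MA library was compared between runs, the 1 labelled factor within MA. Without narrow intervals, MA4 had 13.2% of members and MA5 12.5%, a mean of 12.8% ± 0.483 (SD, n = 2). In run 3 the shares were 9.15% in MA6, 13.2% in MA7, 16.8% in MA8, 6.75% in MA9, 4.96% in MA10 and 11.03% in MA11, a mean of 10.3% ± 4.31 (SD, n = 6). The runs overlapped, with a difference of 2.52 percentage points (two-sided exact permutation test over the 28 ways to choose 2 of 8 libraries, p = 0.5). The rule had removed the regions with a stronger MA interval of these widths, so these shares are what it left under the end of each list and nothing is read from this p. With narrow intervals counted, the shares were 27.7% in MA4 and 26.7% in MA5 against 8.21% to 20.3% in run 3. The difference was then 13.5 points and the exact p was 0.0357, the smallest that 28 ways allow (0.0536 after Benjamini-Hochberg adjustment over 3 comparisons). For members whose only interval was a narrow one, the means were 14.4% ± 0.242 (SD, n = 2) and 3.39% ± 0.937 (SD, n = 6), again with an exact p of 0.0357 (adjusted 0.0536). Run 2 lay above run 3 in every library for both of these measures and in neither did the adjusted value pass 0.05. With 28 ways, and the first comparison counted at an exact p of 0.5, no value under 0.0536 was possible. Nothing is thus read from the adjusted values missing 0.05. Both measures count the members with only a narrow interval, so they are not separate. The gap was not particular to the members. Of all intervals in the complete lists, narrow ones were 15.5% in MA4 and 14.8% in MA5, against 5.19% to 7.05% in run 3.

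**Figure D2:**
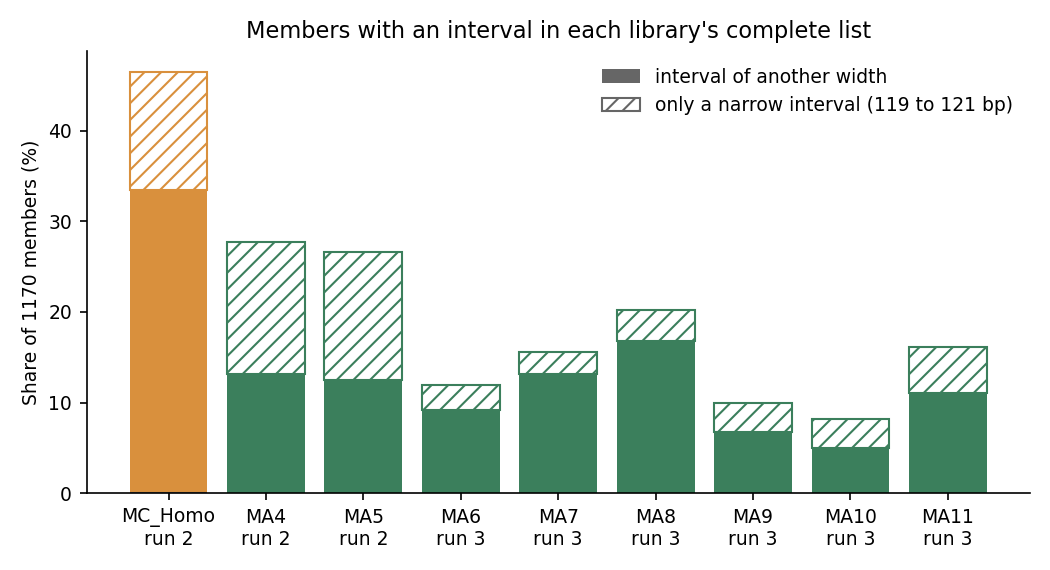
Share of the 1170 members (percent) with an interval in the complete list of MC_Homo (orange) and of each MA library (green), by sequencing run. Filled bars are members with an interval of another width and hatched bars are members with only a narrow interval. The hatched part is 14.5% in MA4 and 14.2% in MA5 and at most 5.13% in a run 3 library. Among all intervals of the complete lists, narrow ones were 15.5% in MA4, 14.8% in MA5 and at most 7.05% in a run 3 MA library.

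Members were therefore sorted by the run of the MA libraries that held them, with any width counted. MA intervals of run 2 alone occurred at 184 members (15.7%), of run 3 alone at 280 (23.9%) and of both at 265 (22.6%). Run 2 had 2 MA libraries and run 3 had 6, and shares over all regions were not taken for this split. The split is thus a description and is not read as particular to the members. At 79 members both run 2 MA libraries and no run 3 MA library had an interval. MC_Homo had one at 65 of these 79 (82.3%), with a median of 5.30 tags per M, while the medians were 2.79 for the MC_Het mean, 2.85 in MA4 and 2.04 in MA5. With any width counted, MC_Homo had an interval at 46.5% of all members and 32.4% of all regions, those held by its list alone included. Among the 101 members in the strongest 20% of the MC_Het lists by mean rank, the share was 94.1%, and 32 of the 79 were among those. These 79 were picked for that pattern in MA. The MC_Homo values were not used to pick them, and strength in MC_Het was not matched. Every MC library was of run 2, so at the 184 members with MA intervals of run 2 alone, absence from the 6 run 3 libraries and the sequencing run cannot be told apart. The 441 members without any MA interval lack one in MA4 and MA5 by definition, so nothing about the run is read from that absence.

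MC_Homo, which the rule did not use, gave a first measure of whether the members recur in other melanocytes. Its list overlapped 392 of the 1170 members, or 33.5% (95% Wilson interval 30.9 to 36.3%), beside 27.1% of all regions. The share among all regions counts regions held by the MC_Homo list alone as found, which no member can be. It is thus not a like baseline. With MA4 left out, the lists merged into 151243 regions with MC_Homo and 133483 without it. The MC_Homo list overlapped 71.4% (70.7 to 72.2%) of the 13629 other regions in all 3 MC_Het lists. Its share was 16.3% (15.1 to 17.6%) of the 3452 regions of all 8 MA lists and no MC_Het list. The members were thus found in MC_Homo less often than other melanocyte regions and more often than melanoma regions. These intervals cover counting error only, and MC_Homo is 1 library, so the shares were not tested. With narrow intervals counted in MC_Homo the shares were 46.5% of members, 76.0% of other MC_Het regions, 17.4% of the melanoma regions and 32.4% of all regions.

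The share in MC_Homo changed with the number of MA lists that held a region. It was 33.5% at the members, 48.1% at the 867 regions in 1 MA list and 67.4% at the 1045 regions in 2. From 2 to 7 lists it lay between 62.3% and 67.4%, and at the regions in all 8 MA lists it was 78.9%. The share rose between 0 and 2 MA lists and again between 7 and 8. The median mean rank in MC_Het moved with it, from 46.6% at the members to 36.7% at 1 list and 19.4% at 8, and its part in the shares was examined in bins of rank. Members also differed from regions of fewer MC_Het lists: with no MA list, MC_Homo overlapped 8.41% of the 35402 regions in 1 MC_Het list and 22.1% of the 5292 in 2.

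**Figure D3:**
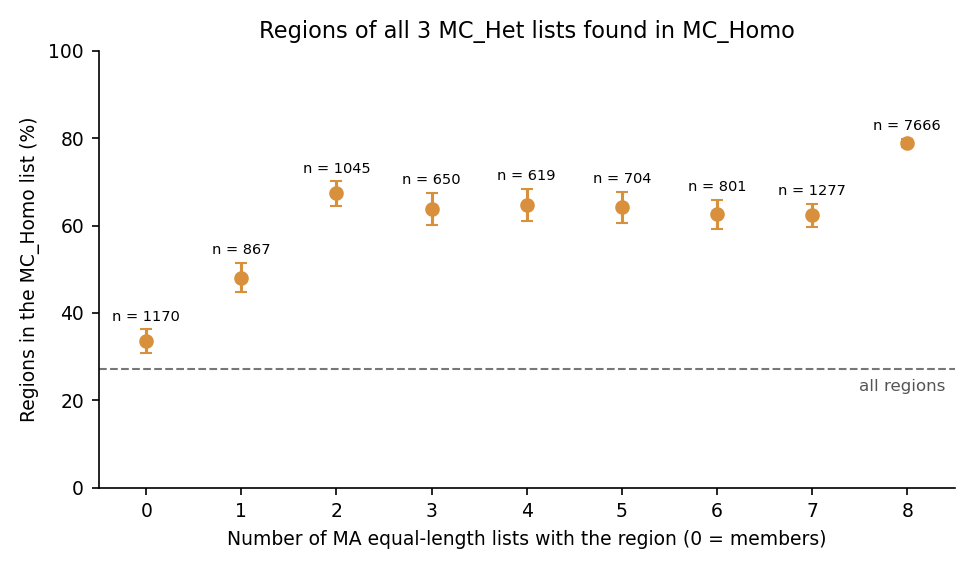
Share of regions in the MC_Homo list (percent, with 95% Wilson intervals) by the number of MA equal-length lists that held the region, for the regions in all 3 MC_Het lists. The dashed line is the share among all regions, 27.1%, those held by the MC_Homo list alone included. The members, at 0 lists, lie at 33.5%, the regions in 1 list at 48.1%, and the regions in all 8 at 78.9%.

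In the strongest 20% by mean rank, MC_Homo held 40.6% of the 101 members and 92.3% of the 5937 other MC_Het regions. In the next 20% the shares were 41.7% and 66.6%, then 31.9% and 44.1%, then 24.1% and 33.8%, and in the weakest 20%, with 39 members and 76 others, 20.5% and 25%. The members were below the others in every bin, and the Wilson intervals overlapped only in the last. These intervals cover counting error within 1 library, and the differences were not tested. With narrow intervals counted, however, MC_Homo held 94.1% of the members and 97.3% of the others in the strongest bin. Counted this way the shares were 55.6% and 72.0% in the second bin, 39.5% and 47.2% in the third, 29.9% and 36.2% in the fourth and 28.2% and 26.3% in the last.

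**Figure D4:**
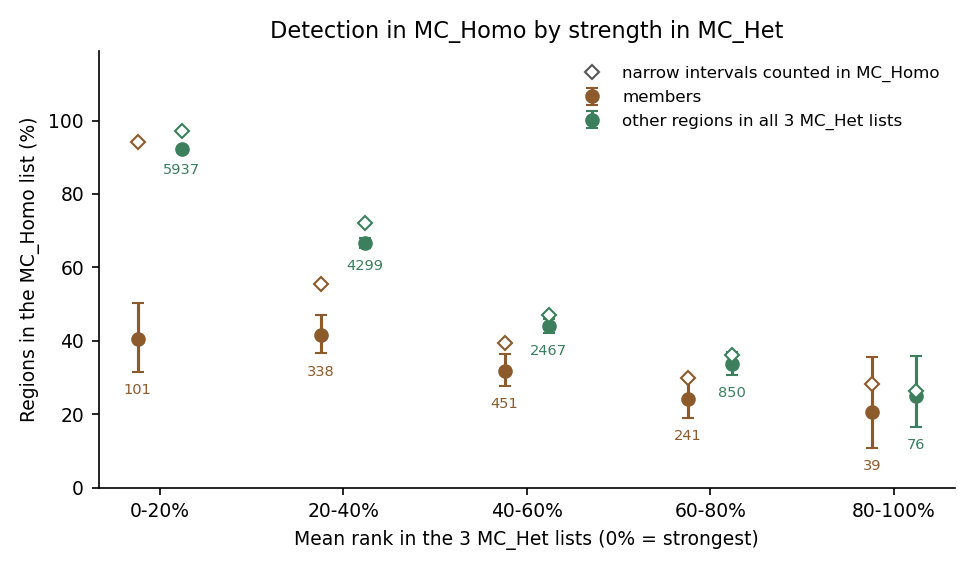
Share of regions in the MC_Homo list (percent, with 95% Wilson intervals) in bins of the mean rank in the 3 MC_Het lists, for members (brown) and the other regions in all 3 MC_Het lists (green), with the number of regions under each point. Open diamonds count narrow intervals in MC_Homo as well. In the strongest bin the filled points are at 40.6% and 92.3% and the diamonds at 94.1% and 97.3%.

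Where the MC_Homo list had a member, its position was near that of MC_Het and its level was alike at the median. Only members that its list overlapped are counted here, so the closeness was in part set by that. Its strongest position lay within 50 bp of the MC_Het mean position at 307 of the 392 members (78.3%), with a median distance of 8.67 bp, and its level was 1.03 times the MC_Het mean at the median. At the regions open in all 11 lists the share within 50 bp was 85.7%, the median distance 10.3 bp and the ratio 0.887. Across the members in MC_Homo, the Spearman correlation of its level with the MC_Het mean was 0.45. The MC_Homo level was below the MC_Het mean at 181 of the 392 members. Members found in MC_Homo were somewhat stronger in MC_Het than members not found there, with medians of 1.55 and 1.35 tags per M, and of the same width, 272.5 and 274 bp. The share found in MC_Homo was lower among the 441 members without any MA interval, 24.7% (20.9 to 28.9%), than among the 583 with an MA interval of another width, 38.9% (35.1 to 43.0%). These intervals did not overlap, but they cover counting error within 1 library, and the difference was not tested. The 441 were also weaker in MC_Het than the 583, with medians of 1.31 and 1.44 tags per M. The share among all regions, 27.1%, counts regions held by the MC_Homo list alone as found, so it is not a like baseline for the 441. With narrow intervals counted the shares were 29.0% of the 441 and 32.4% of all regions. All regions also include those open in all 11 lists, 78.9% of which were in the MC_Homo list, so strength was not matched. At regions in no MA list the share was 8.41% with 1 MC_Het list and 22.1% with 2. In all, 109 members were in the MC_Homo list and in no MA library at any width.

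The choice was then repeated with each library left out in turn, to give a measure in a library that the choice had not used. Regions chosen from 2 MC_Het libraries were found in the list of the left-out library at 32.2% for MC_Het4, 51.1% for MC_Het5 and 40.6% for MC_Het6, a mean of 41.3% ± 9.45 (SD, n = 3). The left-out library's share among all regions was 22.0%, 26.3% and 23.8%. In the complete lists with all widths the left-out libraries held 59.1%, 90.9% and 66.3% of their sets, so most regions had an interval in the third fish, though not always one strong enough for its equal-length list. These complete lists held 80522, 266537 and 93511 intervals. A left-out library's share among all regions was not taken for the complete lists, of MC_Het or of MA. Shares counted that way are thus a description only. MC_Het5, the deepest, held the largest share both ways. Regions chosen without 1 MA library were found in the list of that library at 10.6% for MA4, 15.7% for MA5, 2.09% for MA6, 2.66% for MA7, 4.42% for MA8, 7.66% for MA9, 8.10% for MA10 and 14.7% for MA11, a mean of 8.24% ± 5.17 (SD, n = 8). Each MA library was below its own share among all regions, which lay between 26.6% and 29.7%. At the same 8 sets of regions the MC_Homo list held 33.5% to 36.6%. With complete lists and all widths the left-out MA library held between 13.7% (MA6) and 38.1% (MA5) of its set. MC_Homo held between 46.2% and 50.5%, so it was above each of the 8 melanoma libraries in both ways of counting. The MC_Homo list, however, ended at 0.779 tags per M and the MA lists at 1.13 to 1.43, so weaker intervals counted in MC_Homo. With all widths, MA4 (35.3%) and MA5 (38.1%), of run 2 like MC_Homo, came nearest to it. The run 3 libraries lay between 13.7% and 28.5%. The 11 sets share most of their libraries, so no p is given.

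**Figure D5:**
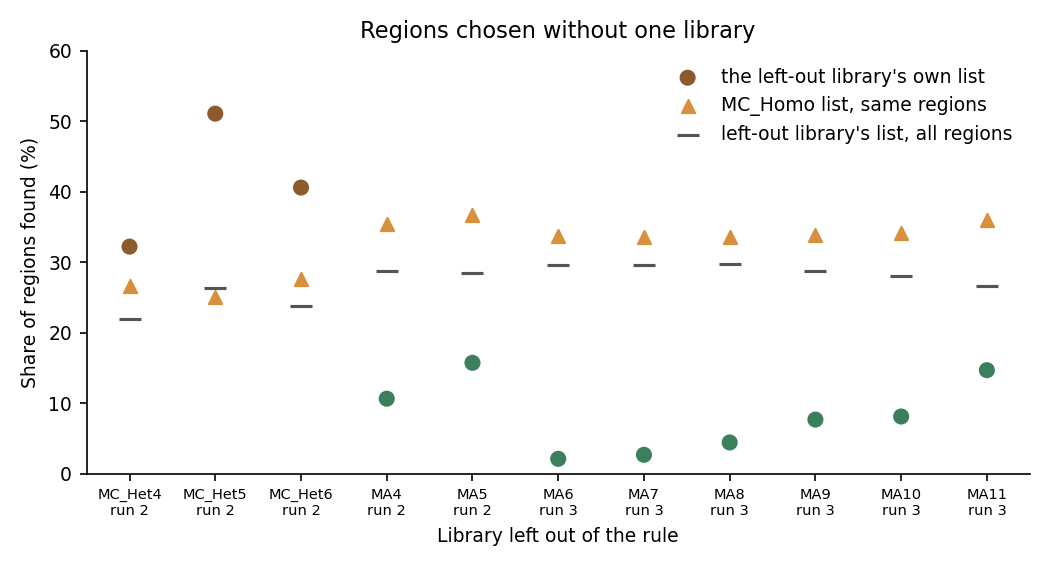
Share of regions found (percent) when 1 library is left out of the choice. Circles are the left-out library's own equal-length list (brown MC_Het, green MA), orange triangles are the MC_Homo list at the same regions, and dashes are the left-out library's list over all regions. MC_Het libraries lie between 32.2% and 51.1%, MA libraries between 2.09% and 15.7%, and MC_Homo between 25.1% and 36.6%.

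Members just inside and just outside the limits had nearly the same peak values. The weakest intervals that made a region a member had a −log10 p of 5.53 in MC_Het4 (chr1:38952267-38952609), 6.71 in MC_Het6 (chr13:47632147-47632515) and 11.6 in MC_Het5 (chr24:18960983-18961373). The regions that missed by the least had 6.71 in MC_Het6 (chr14:22591715-22591841), 11.5 in MC_Het5 (chr20:7354169-7354294) and 11.5 in MC_Het5 (chr6:51580934-51581191). On the melanoma side, the member nearest to an MA list had an MA5 interval with a −log10 p of 7.92 (chr16:55085959-55086174), and the region that was kept out by the least had an MA10 interval with 7.05 (chr1:41494516-41494683). Of the 5292 regions in 2 MC_Het lists and no MA list, 1215 (23.0%) had an interval in the complete list of the third MC_Het library, narrow intervals left aside. The limits fall within a continuous range of strengths.

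The members had a median width of 274 bp, with quartiles of 172 and 375 bp and a range from 107 to 1404 bp, and covered 0.342 Mb in all. They were wider than the regions of all lists together (180 bp) and narrower than those open in all 11 lists (352 bp) or in all 8 MA lists alone (441 bp). A region spans all its merged intervals, so its width depends in part on how many lists the rule required. With no MA list, the median was 134 bp at regions in 1 MC_Het list and 207 bp at those in 2. At regions in all 3 MC_Het lists and 1 MA list it was 205 bp. Under 150 bp were 235 members (20.1%), and 495 (42.3%) were 300 bp or wider. Of the 10 best-ranked members, 6 were narrower than 150 bp.

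The members lay on all 25 chromosomes, from 21 on chromosome 24 to 67 on chromosome 7. As a share of the regions in all 3 MC_Het lists, which was 7.91% for all chromosomes, they ran from 4.92% (95% Wilson interval 3.24 to 7.40%) on chromosome 24 to 10.4% (8.01 to 13.4%) on chromosome 12, with 10.1% (8.05 to 12.7%) on chromosome 8. The intervals of these 3 chromosomes did not include that share. The 3 are the extremes of 25 chromosomes, and the intervals were not adjusted for that choice. Chromosomes to which the MA lists gave a smaller part of their intervals tended to have a larger share of members, with a Pearson r of −0.46 and a Spearman rho of −0.42 over the 25 chromosomes. Those values come from the same 11 lists as the members and describe them only.

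Members were mostly single. Within 50 kb of another member lay 195 (16.7%), in 93 clusters, of which 9 held 3 members and none more. The 3 clusters named, the shortest of those 9, were all on chromosome 13. One ran from 1152667 to 1173071 and consisted of members 873, 209 and 445, with MC_Het means of 1.28 ± 0.225, 2.01 ± 0.794 and 1.37 ± 0.210 tags per M (SD, n = 3). None of its members was in MC_Homo, and member 209 alone had an interval in complete MA lists, in 3 of them. The second, from 2093844 to 2119577, held members 661, 515 and 693 with means of 1.16 ± 0.0632, 1.46 ± 0.476 and 1.52 ± 0.967, with MA intervals at members 515 and 693, and MC_Homo had none of them either. The third, from 49364362 to 49392290, held members 543, 64 and 377 with means of 1.59 ± 0.350, 2.60 ± 0.461 and 1.68 ± 0.615, with MA intervals at all 3, and MC_Homo had members 64 and 377 at 1.25 and 1.40 tags per M.

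The members lay about as far from the regions open in all 11 MC_Het and MA lists as other regions did. Their median distance to the nearest of these was 49.3 kb, and 1.71% lay within 1 kb and 14.6% within 10 kb. For the 5963 regions of all 3 MC_Het and 1 to 7 MA lists the median was 46.8 kb and the share within 10 kb 16.5%, and for all regions other than those open in all 11 lists 53.1 kb and 13.6%. Of the 109 members in the MC_Homo list and in no MA library at any width, the 3 best-ranked, members 36, 41 and 63, lay on 3 different chromosomes.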

How the data were processed

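The 12 ATAC-seq libraries were 3 of MC_Het, 1 of MC_Homo and 8 of MA, grouped by their labels. According to the study's methods, reads were trimmed with CutAdapt, aligned to GRCz11 with BWA, kept if properly paired with a mapping quality over 30, freed of duplicates and called in each library on its own with MACS2 and no control (extension 100 bp, shift -50 bp), with versions not given in the sources used here. The values the authors deposited per interval and used here are the fold enrichment at the summit, a ratio to local background, and its deposited −log10 p; the deposited −log10 q served 1 alternative. Lists called one by one depend on depth, and absence from a list is not absence of signal.

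Chromosomes 1 to 25 were used, with 1 interval per start and end. Regions were cut, merged (1 bp overlap) and selected as the report states. Pileup and local background were solved from the fold and the −log10 p with the Poisson tail (at least 99.99% of pileups whole within 0.02), and depth from the most frequent background. Coordinates are 1-based. The members, the naming rules and the lists were chosen with earlier results of these data known. Named were the 10 best members by mean rank, the 10 best also in MC_Homo and in no complete MA list, the 3 largest clusters (shortest first) and the regions nearest the limits; the 10 best without any MA interval were added after their values were seen. The test was an exact permutation test over libraries, and Wilson intervals cover counting error only. Genes near members, positions relative to genes, sequence content and regions at promoters or marker genes were planned and not run, since no genome or annotation of this build was used here. Scripts ran in Python 3.11.15 with numpy 2.4.6, scipy 1.17.1, pandas 2.3.3 and matplotlib 3.10.9 and were tested on simulated data.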

Additional observations from a re-analysis of the deposited data

How the results depend on the processing

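The rule decided much of the membership. The number of members was 1170, of which 33.5% were in MC_Homo and 441 had no MA interval of any width. Without 1 library at a time the number ran from 1195 to 3641, the share in MC_Homo from 25.2% to 36.7% and the number without any MA interval from 459 to 1391. Only leaving out an MC_Het library moved the counts past 1.5 times, to 3641 members and 1391 without any MA interval for MC_Het4, 2284 and 992 for MC_Het5 and 2873 and 1103 for MC_Het6. With narrow intervals (120 bp, give or take 1 bp) kept, the share was 41.5% and 846 members were without any MA interval, and with intervals under 150 bp dropped there were 461 members, a share of 40.8% and 35 without any. Lists of 30000 intervals gave a share of 39.7% and 230 without any, and lists of 10000 gave 716 members, a share of 75.7% and 8 without any. Complete lists gave 2237 members, 17.6% and 1996, and a −log10 q of at least 5 gave 58.7% and 46. Absence from the complete MA lists left 587 members and 28.1%. Thinning to the lowest depth left 788 members, 280 of them without any MA interval. Absence from the run 2 MA libraries alone gave 2482 members, 43.1% and 1275, and from the run 3 libraries alone 1928 members, 48.4% and 976. Of 3 alternatives chosen after seeing the data, an interval covering at least 0.5 of the region gave 808 members, 24.5% and 279. Absence from complete MA lists with all widths counted gave 441 members and 24.7%, and dropping intervals under 130 bp gave 734 members, 39.2% and 81. The causes were not tested. Ranking by fold and merging gaps of 100 bp moved none of these 3 values past its limit. The planned overlap condition left all 3 exactly as they were. Each interval lies wholly in its merged region, so nothing is read from that condition. In each alternative the share of members in MC_Homo was below that of the other MC_Het regions, which ran from 56.9% to 83.2%. The difference between runs without narrow intervals, 2.52 points, ran from 0.7095 to 3.81 points without 1 library at a time. With narrow intervals counted it was 13.5 points, which was not repeated without single libraries.

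No paired analysis was possible because the replicate numbers shared by MC_Het and MA belong to different fish and that contrast has no test. Alternatives for sequence content and gene position were not run, since no genome of the build was used here. The lowest level called was 0.779 tags per M in MC_Homo and 0.767 in MA10, while the median member had 1.40 in MC_Het.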
